A study of Mus musculus with 18 samples.

Results

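The 8 genes Nags, Cps1, Otc, Ass1, Asl, Arg1, Gls2 and Glud1 encode the enzymes of the urea cycle, the enzyme that makes its activator, and the enzymes that release ammonia from glutamine and glutamate. They were taken by symbol from the liver RNA-seq table and are 8 of its 19057 symbols. All 8 passed the limit for testing, which was at least 1 RPKM (reads per kilobase of transcript, scaled to the mapped reads of the library) in at least 3 of the 18 libraries. In mice given streptozotocin (STZ), the livers held 1.95 to 3.59 times the control level of Cps1, Ass1, Asl, Arg1 and Gls2, while Nags, Otc and Glud1 did not pass the test. In mice that also received gut microbiota, 0 of the 8 genes differed from the STZ mice past the test, in comparisons where only 0.490% and 0.166% of all genes did.

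Ammonia is toxic to the brain, and the liver disposes of it as urea. In the mitochondria of hepatocytes, carbamoyl phosphate synthetase (Cps1) joins ammonia to bicarbonate when N-acetylglutamate, the product of Nags, is bound to it, and ornithine transcarbamylase (Otc) passes the product to ornithine to give citrulline. In the cytosol, Ass1 joins citrulline to aspartate, Asl splits the product into arginine and fumarate, and Arg1 splits arginine into urea and ornithine. Glutaminase 2 (Gls2) and glutamate dehydrogenase (Glud1) supply ammonia inside the mitochondria, and the cycle genes are known to be most active in hepatocytes near the portal vein and to be raised by glucagon and glucocorticoids.

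All mice were of the ICR strain and 10 weeks old, with 3 libraries in each of 6 groups, and this liver series, one readout of a study on male fertility, looked at transplanted microbiota after STZ, a toxin for the insulin-producing beta cells that is used to model type 1 diabetes. By the methods, Con mice were on regular diet with saline, and STZ mice had received STZ. A10-FMT mice had received STZ and then small-intestinal microbiota of donors dosed with alginate oligosaccharide (AOS) at 10 mg/kg, and Con-FMT mice had received STZ and then microbiota of control donors. By their labels, AOS mice were dosed with AOS at 10 mg/kg without STZ, and STZ+AOS mice with both; the methods describe neither group. For the other 4 groups the methods give male mice, a single STZ dose and oral inoculation. The inoculation was daily and had ended 3 weeks before the mice were sampled. The donor material was pooled by donor group, so recipients of a group share 1 inoculum, and the methods do not state that STZ mice were inoculated with vehicle, so that the procedure and the microbiota cannot be told apart. The labels number the libraries 1 to 3 without saying how each was taken, and they are called mice here. The p-values set group differences against the spread between these libraries, estimated in 1 fit over all 6 groups.

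In the mouse genome (build GRCm38, the mm10 assembly named in the submitters' notes), GENCODE M21 places Nags at chr11:102145513-102149477, Cps1 at chr1:67123026-67231259, Otc at chrX:10252305-10321024, Ass1 at chr2:31470207-31520672 and Asl at chr5:130011258-130029247. Arg1 lies at chr10:24915221-24927484, Gls2 at chr10:128194457-128210004 and Glud1 at chr14:34310727-34345265. Asl and Arg1 lie on the minus strand and the others on the plus strand, so that Arg1 and Gls2 share a chromosome but are far apart. RefSeq promoter sequence on GRCm38.p6 was at hand for 4 of the 8 genes (Nags, Otc, Ass1 and Glud1) and not for Cps1, Asl, Arg1 and Gls2. The 4 stretches end just before the first annotated exon base, and are shown because Ass1 rose with STZ and the other 3 did not pass the test there. Capitals mark matches to a GC box (GGGCGG) or a nuclear receptor half-site (AGGTCA) on either strand. They cover chr11:102145263-102145512, chrX:10252055-10252304, chr2:31470020-31470206 and chr14:34310477-34310726, all on the plus strand.
Nags: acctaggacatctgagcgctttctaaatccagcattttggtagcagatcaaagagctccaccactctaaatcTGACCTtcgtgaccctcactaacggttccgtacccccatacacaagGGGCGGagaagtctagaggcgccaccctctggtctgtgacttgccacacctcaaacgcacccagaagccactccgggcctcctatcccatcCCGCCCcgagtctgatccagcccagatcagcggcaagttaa
Otc: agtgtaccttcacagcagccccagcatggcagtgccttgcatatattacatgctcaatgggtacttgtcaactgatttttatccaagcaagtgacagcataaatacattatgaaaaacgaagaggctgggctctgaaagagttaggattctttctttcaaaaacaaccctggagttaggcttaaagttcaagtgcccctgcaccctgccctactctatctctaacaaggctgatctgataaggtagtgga
Ass1: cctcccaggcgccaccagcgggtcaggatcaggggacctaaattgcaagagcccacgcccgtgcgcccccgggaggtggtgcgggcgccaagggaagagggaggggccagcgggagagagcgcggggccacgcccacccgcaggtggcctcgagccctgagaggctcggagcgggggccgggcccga
Glud1: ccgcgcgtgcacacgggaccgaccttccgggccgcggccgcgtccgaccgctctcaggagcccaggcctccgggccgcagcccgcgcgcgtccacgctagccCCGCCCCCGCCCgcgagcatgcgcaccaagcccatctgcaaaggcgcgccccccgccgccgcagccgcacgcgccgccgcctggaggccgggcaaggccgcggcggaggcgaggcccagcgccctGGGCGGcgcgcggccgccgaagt
The Glud1 stretch was the richest in G and C at 82%, followed by Ass1 at 75.4%, Nags at 55.6% and Otc at 43.6%. The median was 52.4% over 32851 windows of 250 bases, from which 1 chromosome was left out. The search on both strands also took 6 motifs that none of the 4 stretches held. Over these windows of 250 bases, the TATA box in its form TATAAA occurred in 12.4%, and the CCAAT motif in 33.8%. The half-site of the cyclic AMP response element, written TGACGT, occurred in 6.47%, and the C/EBP motif TTGCNNAA in 9.56%. For the glucocorticoid receptor the half-site was TGTTCT, found in 16.1%, and a core of the direct repeat bound by nuclear receptors, CAAAGTCCA, was found in 0.384%. Nags held 2 GC boxes and 1 half-site, and Glud1 held 3 GC boxes, a pair of them side by side. A GC box occurs in 32.7% and the half-site in 14% of all windows of 250 bases. None of the 8 motifs was matched in the 250 bases of Otc or the 187 bases of Ass1. These matches describe letters only.

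The libraries were of liver by their markers: 6 of 7 hepatocyte markers were in the table and summed to 32993 to 54815 RPKM, while 4 kidney markers summed to at most 0.26 and 5 lymphocyte markers to at most 3.46. Other lists were not near 0: 4 erythroid markers summed to 279.66 to 9166 RPKM. The 4 markers of small intestine, a tissue that also expresses Cps1, Otc and Ass1, summed to 20.3 to 67.3 RPKM. Only 1 of them passed the limit for testing. A single gene made up nearly all of the highest Con sum, at 57.4 of 57.43 RPKM. RPKM carry no read counts, but low values of short genes piled up where 1 read would stand at 13000000 to 14000000 mapped reads, an estimate over all libraries by which they cannot be ranked. At about that depth Nags, the lowest of the 8 genes, had an estimated 742 or more reads per library. The RPKM of a library summed to 749557 to 806937 in Con and 631126 to 684659 in STZ, and the median log2 change of all 10822 genes tested was 0.21 in STZ against Con, and some changes are also given relative to that median. STZ mouse 3 stood apart from the other STZ mice on the first principal component (0.18, against 45.9 and 46.4), which held 57.0% of the variance, and values without it are given beside the comparisons with the STZ group.

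In the control liver the members spanned a wide range of levels. RPKM are divided by transcript length, so levels are set side by side between genes here. Which annotation gave the lengths is not known, and close ranks between genes may depend on it. Ass1 was the highest in all 18 libraries, at 1345, 1992 and 1688 RPKM in the Con mice (1675 ± 324, SD, n = 3), and Nags was the lowest in all 18, at 31.4 ± 1.51 RPKM in Con. In each Con and AOS mouse the order was Ass1, Arg1, Cps1, Glud1, Otc, Asl, Gls2, Nags. Of the neighbours in that order some met in the Con mice and others, such as Ass1 and Arg1, did not: Con mice reached 318 RPKM for Glud1 and started at 298 for Cps1, and the ranges of Otc (202 to 259) and Asl (159 to 203) also met. In the STZ mice Asl stood above Glud1 in each of the 3 mice, and Gls2 stood above Otc in each, whereas Otc had been above both Asl and Gls2 in every Con mouse. In STZ mouse 1 Gls2 and Otc were nearly level, at 339.97 and 338.86 RPKM. Gls2 and Glud1 exchanged places between STZ mice.

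**Figure D1:**
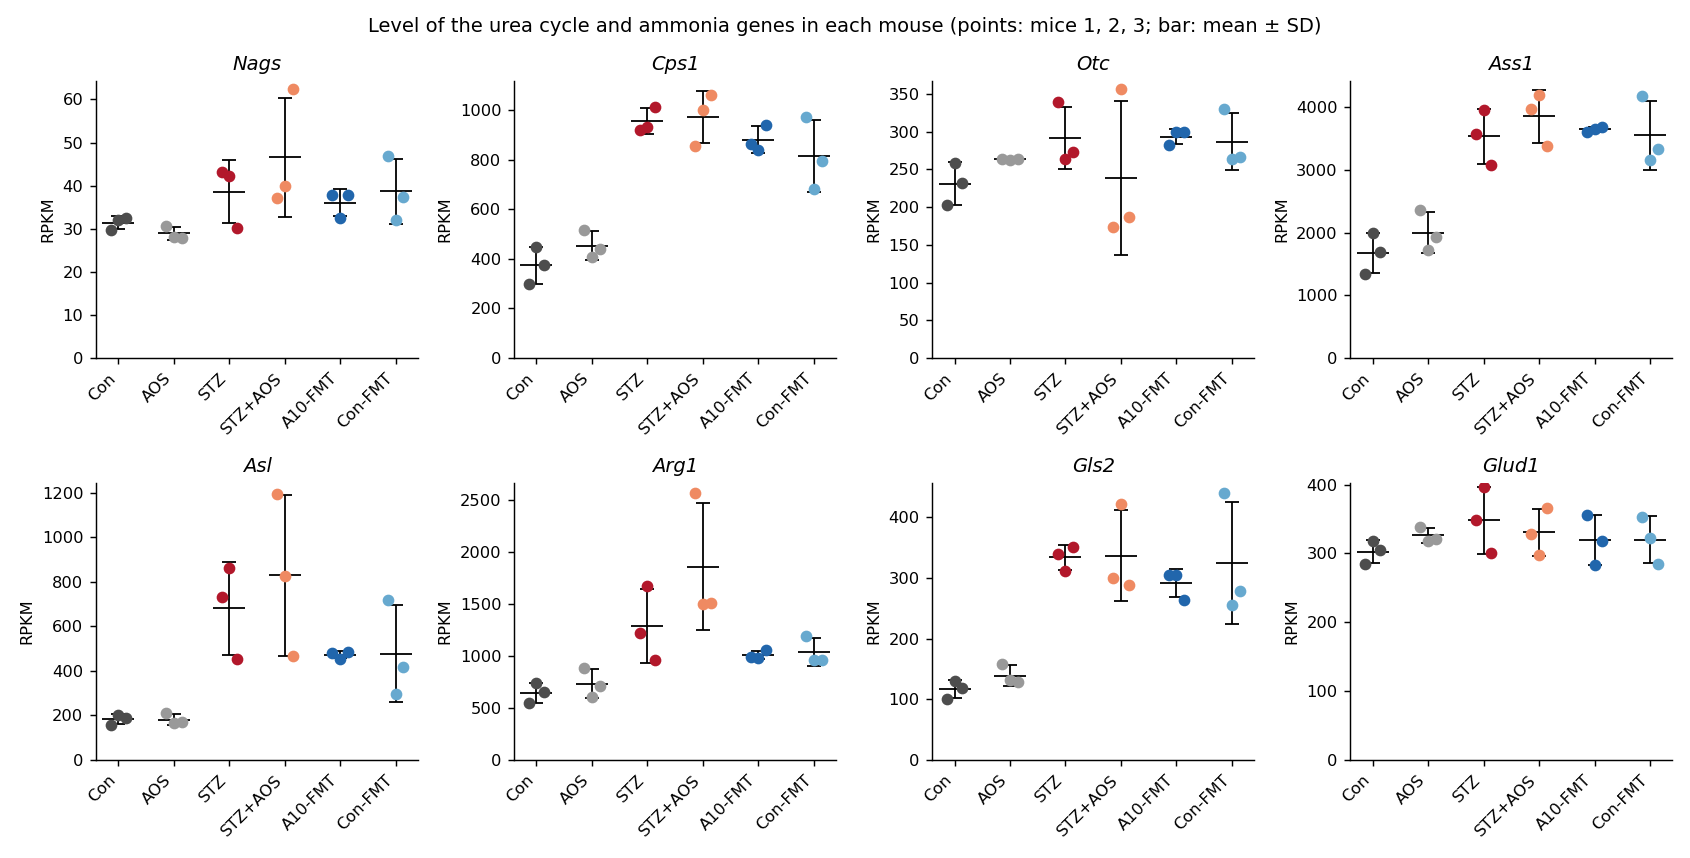
RPKM of each of the 8 genes in each mouse (points) with the group mean and SD (bars), for the 6 groups of 3 mice, on linear axes that start at 0. Cps1, Ass1, Asl, Arg1 and Gls2 lie higher in every mouse of the 4 groups given STZ than in any Con or AOS mouse, while Glud1 stays between 283 and 397 RPKM in all 18.

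STZ was compared with Con to ask how the diabetic liver differs. At the entry of ammonia into the cycle, Cps1 was at 298, 449 and 375 RPKM in the Con mice and at 920.02, 932 and 1014 RPKM in the STZ mice. The lowest STZ mouse held more than the highest Con mouse, and STZ mouse 3 was the highest of the STZ mice. Cps1 was 2.58-fold higher (log2 change 1.37, SE 0.16, adjusted p = 6.92e-05 by limma on log2(RPKM + 1), two-sided, Benjamini-Hochberg over all 10822 genes), or 1.16 above the median of all genes. A gene is called when this adjusted p is under 0.05. Nags, which makes the obligate activator of Cps1, was at 29.7, 31.9 and 32.55 RPKM in Con and at 43.2, 42.3 and 30.1 in STZ. The third STZ mouse lay within the Con range, and the change of 0.27 (95% interval -0.11 to 0.66) was not called (adjusted p = 0.251).

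Among the cycle enzymes, Ass1, Asl and Arg1 were called and Otc was not. Asl showed the largest change of the 8 genes: it was at 159, 203 and 188 RPKM in Con and at 731, 861 and 451 in STZ. No STZ mouse overlapped the Con mice, but the third held the least, and the spread among the STZ mice (SD 209) was wider than among the Con mice (SD 22.7). Asl was 3.59-fold higher (log2 change 1.84, SE 0.33, adjusted p = 0.000944). Ass1, which makes argininosuccinate, rose from 1345, 1992 and 1688 RPKM to 3566, 3955 and 3082 in STZ, again without overlap, a change of 1.09 (SE 0.19, adjusted p = 0.000706). Arg1, the last step, was at 544, 736 and 656 RPKM in Con and at 1217, 1671 and 964 in STZ. Its groups did not overlap either, and it was 1.95-fold higher (log2 change 0.97, SE 0.23, adjusted p = 0.00531). Otc, the mitochondrial step between Cps1 and Ass1, was at 202, 259 and 233 RPKM in Con and at 339, 264 and 273 in STZ. The groups just missed each other, and the change of 0.33 (95% interval -0.11 to 0.77) was not called (adjusted p = 0.219).

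Of the ammonia-releasing enzymes Gls2 was called and Glud1 was not. Gls2, the liver glutaminase, was at 100.38, 131 and 118 RPKM in Con and at 339.97, 311 and 350.25 in STZ. All STZ mice lay far above all Con mice, by 2.86-fold (log2 change 1.52, SE 0.19, adjusted p = 9.45e-05). Glud1, which frees ammonia from glutamate, was at 285, 318 and 304 RPKM in Con and at 348, 397 and 299.89 in STZ. These ranges overlapped, and the change of 0.20 (95% interval -0.08 to 0.47, adjusted p = 0.249) was -0.02 relative to the median of all genes.

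In STZ against Con, 5 of the 8 genes were called higher and 0 lower, where 36.1% of all genes tested were called (30.8% higher and 5.25% lower). The median change of the 8 genes was 1.03, beside 0.21 for all genes, and Arg1, the least changed of the 5 called genes, lay 0.75 above that median. Groups did not overlap for 6 of the 8 genes, all higher in STZ, against 40.6% of all genes. When libraries were instead scaled by their median ratio to the mean library, calls over all genes split into 12.2% higher and 12.0% lower, and the same 5 genes were called, with changes from 0.70 (Arg1) to 1.57 (Asl). Without STZ mouse 3 the same 5 genes were called, beside 43.1% of all genes (36.3% higher). Asl was then at 2.11, Arg1 at 1.15, Ass1 at 1.18, Cps1 at 1.32 and Gls2 at 1.48, and Nags stood at 0.44 (adjusted p = 0.0699).

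Markers of some other cell types and liver zones were also called in STZ against Con, and their part in the result was not tested. Of 7 other genes of periportal hepatocytes, 5 were called higher in STZ and 1 lower (Cyp2f2, -0.92), with a summed level of 1932 to 2242 RPKM in Con and 1810 to 2403 in STZ. Of 10 genes of pericentral hepatocytes, the opposite zone, 3 were called higher (Cyp2e1, Oat and Rhbg) and 0 lower, about the 30.8% of all genes called higher. The 10 genes summed to 2425 to 3284 RPKM in Con and 4418 to 6755 in STZ. Single genes made up much of both zone sums. Cyp2f2 reached 1528 RPKM in Con and 1266 in STZ, and the highest pericentral gene reached 2572 and 4760. The 6 hepatocyte markers split into 1 higher and 3 lower (Ttr, Apoa1 and Serpina1a), and 5 Kupffer and macrophage markers summed to 40.9 to 53.8 RPKM in Con and 56.4 to 143.64 in STZ, with Marco called higher at 2.79. Of 5 markers of sinusoidal endothelium 2 were called higher (Kdr at 0.64 and Pecam1 at 0.54), with sums of 35.6 to 40.2 RPKM in Con and 38.4 to 50.5 in STZ. Called lower were Alas2 of 4 erythroid markers (-3.19), Sox9 of 3 tested cholangiocyte markers (-0.73) and Cela1, the only tested marker of exocrine pancreas (-2.55), whose list summed to 31.1 to 40.6 RPKM in Con and 2.96 to 8.77 in STZ. In whole liver, a change in the number of cells of a type and a change in RNA per cell cannot be told apart.

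**Figure D2:**
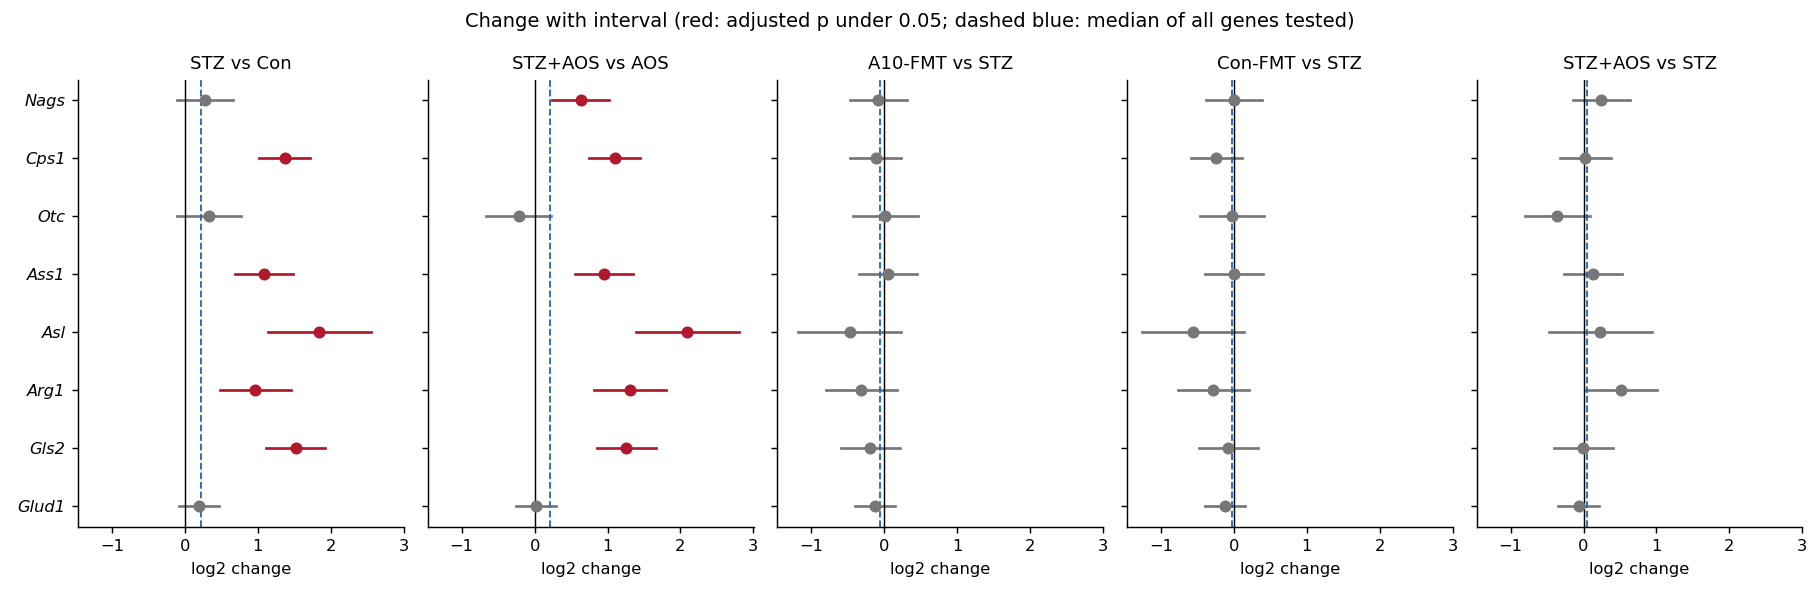
Log2 change of each of the 8 genes (points) with its 95% interval (lines) in 5 comparisons, on the log2(RPKM + 1) scale, with called genes in red, others in grey and the median change of all 10822 genes as a dashed line. In STZ against Con 5 genes are called and in STZ+AOS against AOS 6, all to the right, while the 3 comparisons with the STZ group hold 0 called genes and 1 interval that does not cover 0 (Arg1 in STZ+AOS against STZ, 0.03 to 1.01).

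The STZ effect was measured again in mice given AOS, in different livers from the comparison above. In STZ+AOS against AOS, 6 of the 8 genes were called higher and 0 lower, where 37.9% of all genes were called (31.8% higher). Groups did not overlap for the same 6 genes, all higher, against 40.5% of all genes. Asl was at 208, 164 and 169.76 RPKM in the AOS mice and at 1194, 825 and 467 in the STZ+AOS mice. The third STZ+AOS mouse held much less than the first, yet all 3 stood above the AOS mice, and the change was 2.10 (SE 0.33, adjusted p = 0.000483). Arg1 was at 879, 607 and 709 RPKM in AOS and at 2563, 1500.23 and 1504 in STZ+AOS, of which the first is the highest Arg1 level of the 18 mice. Its change was 1.31 (SE 0.23, adjusted p = 0.000908). Gls2 went from 158, 131 and 128 to 300.19, 423 and 288 RPKM, a change of 1.26 (adjusted p = 0.000385), Cps1 changed by 1.10 (adjusted p = 0.000365) and Ass1 by 0.95 (adjusted p = 0.0016).

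Nags, which had not been called in STZ against Con, was at 30.7, 28.2 and 27.9 RPKM in AOS and at 37.2, 39.85 and 62.5 in STZ+AOS. All 3 STZ+AOS mice lay above the AOS mice, and it was called (log2 change 0.63, SE 0.18, adjusted p = 0.0141), but not without STZ+AOS mouse 3 (0.40, adjusted p = 0.0654) and not after median-ratio scaling (0.39, adjusted p = 0.0838). Otc was at 264, 262 and 264 RPKM in AOS and at 173, 356 and 187 in STZ+AOS. The second STZ+AOS mouse was the highest for Otc of all 18 and the others were the lowest, and the change of -0.22 was not called (adjusted p = 0.418). Without that mouse it was called lower, by -0.55 (adjusted p = 0.00862). Glud1 was not called (0.02, adjusted p = 0.930).

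The difference between both STZ effects (STZ+AOS against AOS minus STZ against Con) was called for 0 of the 8 genes and for 0% of all genes. By unadjusted p under 0.05 it was 0 of the 8 genes and 5.40% of all. The largest difference was that of Otc, at -0.55 (95% interval -1.18 to 0.07, adjusted p = 0.856), followed by Nags at 0.36 (95% interval -0.19 to 0.90). Leaving out STZ mouse 3 gave -0.60 and 0.19, and then 0 of the 8 genes were called.

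The transplanted mice were compared with the STZ mice to ask whether microbiota altered these genes after STZ. Both comparisons share the 3 STZ mice. Against STZ, A10-FMT had 0 of the 8 genes called (0.490% of all genes were), and 0 had an unadjusted p under 0.05 (18.9% of all genes did). In Con-FMT against STZ the counts were also 0 called (0.166% of all genes) and 0 by unadjusted p (18.8%). The median change of the 8 genes was -0.12 in A10-FMT and -0.10 in Con-FMT, beside -0.05 and -0.03 for all genes.

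Asl had the largest of these uncalled changes. It was at 479, 454 and 486 RPKM in A10-FMT and at 719.76, 294 and 418 in Con-FMT, against 731, 861 and 451 in STZ. The A10-FMT mice were tightly grouped around the level of the lowest STZ mouse, whereas the Con-FMT mice spread as widely as the STZ mice. The change against STZ was -0.47 (95% interval -1.18 to 0.23, adjusted p = 0.462) in A10-FMT and -0.56 (95% interval -1.26 to 0.14, adjusted p = 0.380) in Con-FMT. Without STZ mouse 3 these were -0.75 (adjusted p = 0.174) and -0.83 (adjusted p = 0.125), not called either. Arg1 was at 986, 979 and 1056 RPKM in A10-FMT and at 1189, 959.65 and 957 in Con-FMT, changes of -0.31 (95% interval -0.81 to 0.18) and -0.28 (95% interval -0.77 to 0.21) from STZ. When STZ mouse 3 was left out they were -0.50 (adjusted p = 0.183) and -0.47 (adjusted p = 0.206).

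Gls2 was at 305, 305 and 264 RPKM in A10-FMT and at 440.05, 255 and 279 in Con-FMT. All 3 A10-FMT mice lay below the STZ mice, as for 13.9% of all genes, but the change was only -0.20 (95% interval -0.60 to 0.21, adjusted p = 0.609). Cps1 was at 863, 838 and 939.86 RPKM in A10-FMT and at 969.52, 679.8 and 795 in Con-FMT. Of these 6 mice 4 lay below the lowest STZ mouse, and the changes were -0.12 (95% interval -0.47 to 0.23) and -0.24 (95% interval -0.59 to 0.11). Ass1 was at 3608, 3645 and 3683 RPKM in A10-FMT (coefficient of variation 1.02%) and at 4176, 3152 and 3326 in Con-FMT. Its changes from STZ were 0.05 and 0.00 (95% intervals -0.34 to 0.45 and -0.39 to 0.40). For Nags, Otc and Glud1 the changes from STZ lay between -0.12 and 0.02 in both groups. Without STZ mouse 3 Glud1 stood at -0.23 and -0.22, Nags at -0.24 and -0.16, Cps1 at -0.07 and -0.20, Gls2 at -0.16 and -0.05, Ass1 at -0.04 and -0.09, and Otc at -0.03 and -0.07 in A10-FMT and Con-FMT. None of the 8 genes was called then either, although A10-FMT then had 9.23% of all genes called against STZ, and Con-FMT 12.2%.

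For the mean of both transplanted groups against STZ, 0 of the 8 genes were called, where 2.80% of all genes were, and the largest change was again that of Asl (-0.52, 95% interval -1.13 to 0.09, adjusted p = 0.288). With STZ mouse 3 left out it was -0.79 (adjusted p = 0.0914) and Arg1 was at -0.49 (adjusted p = 0.127), with 0 of the 8 genes and 16.9% of all genes called. A10-FMT and Con-FMT did not differ past the test from each other for any of the 8 genes (0% of all genes were called, and by unadjusted p 0 of the 8 genes and 2.26% of all), with changes between -0.12 and 0.13. The interval was widest for Asl (-0.62 to 0.79) and narrowest for Glud1 (-0.28 to 0.27).

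Set against the Con mice, the transplanted mice held 4 of the 8 genes higher in each group, namely Cps1, Ass1, Asl and Gls2. All genes were called at 17.1% in A10-FMT (14.7% higher) and 18.1% in Con-FMT (16.3% higher), and these comparisons share the Con mice with each other and with STZ against Con. Cps1 was 2.38-fold higher in A10-FMT (adjusted p = 0.000327) and 2.18-fold in Con-FMT (adjusted p = 0.000868). Gls2 was 2.50-fold and 2.71-fold higher (adjusted p = 0.000613 and 0.000404), and Ass1 changed by 1.14 and 1.09 on the log2 scale (adjusted p = 0.00142 and 0.00231). Asl was 2.58-fold and 2.43-fold higher (adjusted p = 0.0134 and 0.0178), calls that were lost without Con mouse 1 (adjusted p = 0.0609 and 0.0770), for A10-FMT without its mouse 3 (0.0508), and for Con-FMT without its mouse 1 (0.105). Groups did not overlap, all higher than Con, for 6 of the 8 genes in each comparison, where A10-FMT had 41.2% of all genes so placed and Con-FMT 40.1%. Arg1 was among them, at 1.57-fold and 1.61-fold, and was just not called (adjusted p = 0.0635 and 0.0516). Otc was among them too, with smaller changes of 0.35 and 0.31 (adjusted p = 0.254 and 0.306).

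In mice without STZ, no change of the 8 genes with AOS passed the test. In AOS against Con 0 were called, where 0.00924% of all genes were, and 0 had an unadjusted p under 0.05 (7.22% of all genes did). Cps1 had the largest change, from 298, 449 and 375 RPKM in Con to 517, 406 and 438 in AOS. The ranges overlapped, and the change was 0.29 (95% interval -0.06 to 0.64, adjusted p = 0.765). Only Otc did not overlap, with 3 AOS mice at 262 to 264 RPKM above the highest Con mouse at 259, as for 19.1% of all genes, and its change of 0.19 was not called (adjusted p = 0.880).

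On top of STZ, AOS gave 0 called genes of the 8 and 0% of all genes, while 1 of the 8 genes (Arg1) and 6.07% of all genes had an unadjusted p under 0.05. Arg1 was at 1217, 1671 and 964 RPKM in STZ and at 2563, 1500.23 and 1504 in STZ+AOS, with overlap between the groups. Its change was 0.52 (95% interval 0.03 to 1.01, adjusted p = 0.806). Otc had the largest change in the other direction, -0.36 (95% interval -0.80 to 0.08, adjusted p = 0.811), and Cps1 and Gls2 stood at 0.02 and -0.01 with intervals from -0.33 to 0.37 and from -0.41 to 0.40. Arg1 without STZ mouse 3 stood at 0.33 (adjusted p = 0.693) and Otc at -0.40, and 0 of the 8 genes were called.

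**Figure D3:**
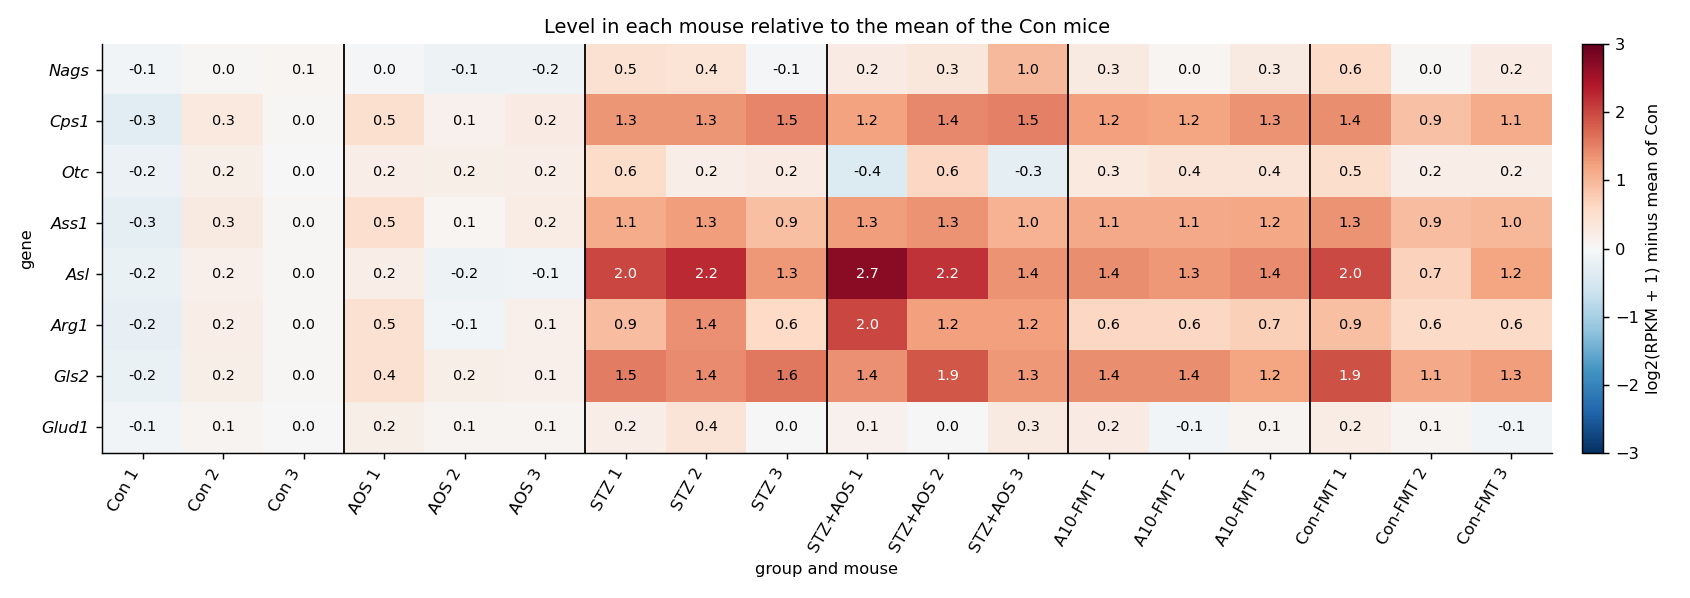
Log2(RPKM + 1) of each of the 8 genes (rows) in each of the 18 mice (columns, ordered by group) minus the mean of the 3 Con mice, in colour and as printed values. Cps1, Ass1, Asl, Arg1 and Gls2 are above 0 in every mouse of the STZ, STZ+AOS, A10-FMT and Con-FMT groups, whereas Nags, Otc and Glud1 reach no more than 0.97 in any of these mice and lie at or below 0 in some.

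The 8 genes did not vary together as a block across mice. Summed, they made up 0.367% to 0.550% of all RPKM in the Con mice, 0.944% to 1.34% in STZ and 1.18% to 1.47% in STZ+AOS, with A10-FMT (0.959% to 1.05%) and Con-FMT (0.840% to 1.22%) within or, for 2 Con-FMT mice, below the STZ range. Across the 18 libraries, Cps1, Ass1 and Gls2 were closest to each other (Pearson r = 0.961 for Cps1 with Ass1, 0.964 for Cps1 with Gls2 and 0.962 for Ass1 with Gls2). Asl was closest to Arg1 (r = 0.920, Spearman rho = 0.965). This grouping depended on the measure: by Spearman rho, Ass1 was closer to Asl (0.938) and Arg1 (0.895) than to Gls2 (0.827) or Cps1 (0.761). These values are descriptions over 18 points that share groups. Within groups, r was 0.668 for Cps1 with Ass1, 0.670 for Cps1 with Gls2, 0.688 for Ass1 with Gls2 and 0.791 for Asl with Arg1. There too Ass1 was closer to Asl (0.753) and Arg1 (0.719). Otc was less close to these genes over all libraries, with Pearson r of 0.319 with Cps1, 0.355 with Ass1, 0.418 with Gls2 and -0.08 with Arg1. By rank the values were higher, with Spearman rho of 0.455, 0.513, 0.651 and 0.259 in that order. Within groups Otc was close to Gls2 (r = 0.727). Glud1 was closest to Nags, at 0.575 over all 18 libraries and 0.711 within groups.

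The genes outside the set whose levels were most like each member were ranked by Pearson r over the same 18 libraries. Cps1 was most like Etnppl, a lyase of phosphoethanolamine (r = 0.989), then Cyp2c38 (0.979) and Abhd4 (0.976). Ass1 was most like Hpd, an enzyme of tyrosine breakdown (r = 0.977), then Gsta2 (0.973) and Abcc3 (0.968). Gls2 was most like Hgd, which acts after Hpd in that pathway (r = 0.977), then Hpd (0.974) and Gsto1 (0.971). Asl was most like Rundc3a (r = 0.991), then Fh1, the enzyme that takes up the fumarate released by Asl (0.977), and Tmem120a (0.976). For Arg1 the closest were Sdsl (r = 0.972), Kng2 (0.959) and Dstn (0.957). Each of these closest genes of the 5 called members was itself called higher in STZ against Con, with changes from 0.47 (Dstn) to 3.86 (Cyp2c38). Of all genes 30.8% were called higher there. The ranking took r over libraries that include the Con and STZ mice, so these calls follow largely from the choice and are no separate support. For the uncalled members r was lower. Nags was most like Raly (r = 0.932), Bax (0.931) and Nfkbil1 (0.923), Otc was most like Gatb (0.932), Bdh1 (0.918) and Ivd (0.906), and Glud1 was most like Cdh5 (0.833), Secisbp2l (0.815) and Specc1l (0.808).

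Around the cycle, 49 other genes of nitrogen handling were listed by role, of which 49 were in the table and 40 passed the limit for testing. In STZ against Con, 25 of the 40 were called higher, 0 lower and 15 were not called, with a median change of 0.78 beside 0.21 for all genes and a background of 30.8% called higher. After median-ratio scaling 17 were called higher and 1 lower (Gcgr, the glucagon receptor, at -0.30, adjusted p = 0.0402), beside 12.2% and 12.0% of all genes. Without STZ mouse 3, a setting chosen after seeing the data, 25 were called higher and 0 lower, beside 36.3% of all genes higher. In STZ+AOS against AOS 26 were called higher and 0 lower (31.8% of all genes higher), and in each of A10-FMT and Con-FMT against Con 18 were higher and 0 lower (14.7% and 16.3% of all genes higher). In AOS against Con, STZ+AOS against STZ, A10-FMT against STZ and Con-FMT against STZ 0 of the 40 were called, by limma, while 7, 1, 5 and 7 of them had an unadjusted p under 0.05, beside 7.22%, 6.07%, 18.9% and 18.8% of all genes. Without STZ mouse 3, 1 of the 40 was called lower in A10-FMT against STZ, Ppargc1a at -1.30 (adjusted p = 0.0114). In Con-FMT against STZ 3 were then called lower, Ppargc1a at -1.21 (adjusted p = 0.0135), Slc38a2 at -0.84 (adjusted p = 0.0323) and Nr3c1, the glucocorticoid receptor, at -0.33 (adjusted p = 0.0413). These 4 calls lie beside the 9.23% and 12.2% of all genes called without that mouse.

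All 4 tested mitochondrial carriers that feed the cycle were called higher in STZ against Con, where 30.8% of all genes were. The bicarbonate enzyme of their list was not called. Slc25a22, a glutamate carrier, was at 39.2, 37.0 and 39.97 RPKM in Con and at 103, 124 and 137 in STZ. It changed by 1.61 (SE 0.16, adjusted p = 1.68e-05). Slc25a13, which brings out aspartate for Ass1, changed by 1.21 (adjusted p = 0.001), and Slc25a15, which exchanges ornithine and citrulline on either side of Otc, by 0.97 (adjusted p = 0.000788). Car5a, the enzyme that supplies bicarbonate to Cps1, was at a change of 0.44 (adjusted p = 0.172).

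The genes that use arginine and ornithine held the 2 largest changes of the lists on the log2(RPKM + 1) scale, which understates low genes. Oat, which draws ornithine from the cycle to make glutamate, was at 72.8, 81.6 and 79.9 RPKM in Con and at 1024, 757 and 724 in STZ. It was 10.5-fold higher (log2 change 3.39, SE 0.34, adjusted p = 1.62e-05), and in liver it is known from pericentral hepatocytes, not from the periportal ones that hold the cycle. Slc7a2, a carrier of arginine, was at 11.7, 14.7 and 14.1 RPKM in Con and at 121, 105 and 90.7 in STZ, a 7.35-fold difference (adjusted p = 2.19e-06). Agmat, which splits agmatine into urea and putrescine, changed by 0.96 (adjusted p = 0.00595). So 3 of the 5 tested genes of this list were called higher, beside 30.8% of all genes, and Odc1 (0.21) and Gatm (0.06) were not called.

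Of the genes listed as feeding nitrogen into the cycle, 8 of 11 were called higher, beside 30.8% of all genes. They were transaminases, deaminases and enzymes of glycine and proline breakdown (Gldc, Amt, Prodh and Aldh4a1). Got1, the cytosolic aspartate aminotransferase, was at 33.6, 51.8 and 44.8 RPKM in Con and at 321, 318 and 245 in STZ, 6.71-fold higher (adjusted p = 6.8e-06). Sds, which frees ammonia from serine, changed by 1.68 (adjusted p = 0.000414), and Gpt, the alanine aminotransferase, by 0.95 (adjusted p = 0.0074). Only 3 of the 11 were called after median-ratio scaling, all higher, beside 12.2% of all genes called higher. For glutamine and ammonium handling 4 of 7 were called higher, and 3 after median-ratio scaling, beside 30.8% and 12.2% of all genes. Among the 4 were the amino acid carriers Slc38a2 (1.66, adjusted p = 9.82e-05) and Slc38a4 (1.05, adjusted p = 0.000501) and the ammonia channel Rhbg (1.09, adjusted p = 0.00412). Glul, which makes glutamine from ammonia in pericentral cells and so opposes Gls2, was at 186, 167 and 181 RPKM in Con and at 340.16, 224 and 199 in STZ. Its groups did not overlap, and it was not called (0.47, adjusted p = 0.148).

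Among 11 regulators of the cycle genes and their enzymes, 5 were called higher, beside 30.8% of all genes. After median-ratio scaling 3 were called higher and 1 lower, beside 12.2% and 12.0% of all genes. Ppargc1a, a coactivator of fasting genes, was low at 0.56, 0.77 and 0.68 RPKM in Con and reached 4.72, 8.84 and 2.98 in STZ, with a change of 1.86 (adjusted p = 0.00033). Sirt3, a mitochondrial deacetylase known to act on Otc, changed by 1.05 (adjusted p = 0.00136), and Foxo3 by 0.90 (adjusted p = 0.00351), whereas Sirt5, known to act on Cps1, was not called (0.01, adjusted p = 0.989). Aqp9, a channel for urea and glycerol and the only tested gene of 3 listed for urea exit, changed by 0.78 (adjusted p = 0.00289).

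**Figure D4:**
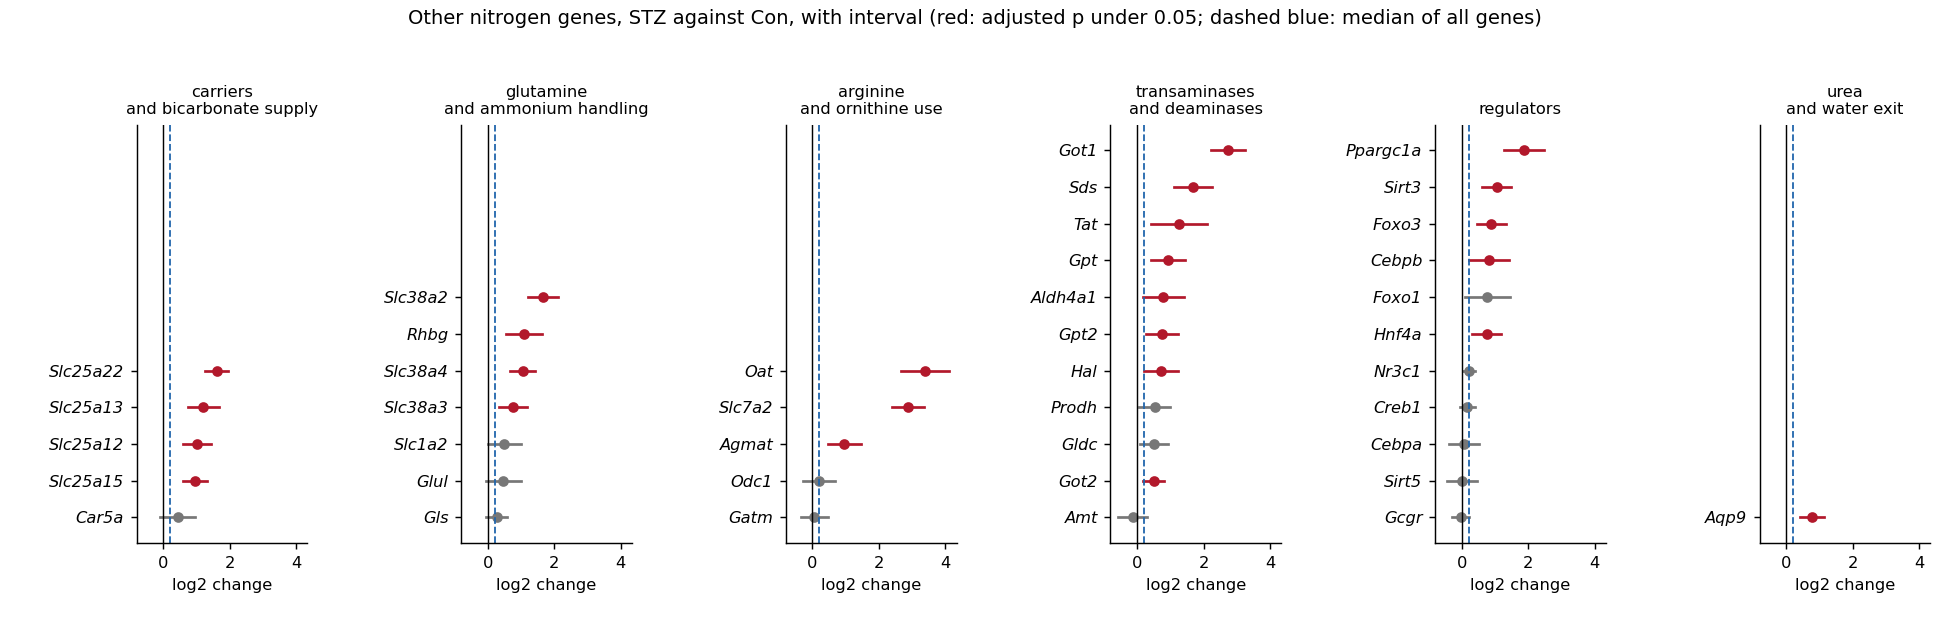
Log2 change in STZ against Con (points) with its 95% interval (lines) for the 40 tested genes of the 6 lists around the cycle, on the log2(RPKM + 1) scale, with called genes in red, others in grey and the median of all genes as a dashed line. Oat (3.39), Slc7a2 (2.88) and Got1 (2.75) lie farthest right, and no gene is called to the left of 0.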

How the data were processed

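Liver RNA-seq of 18 ICR mice (6 groups of 3) was used. By the methods, the authors enriched poly(A) RNA, sequenced it on an Illumina HiSeq and mapped it to reference genes with SOAPaligner, whereas the submitters' processing notes name Bowtie 0.12.2 and mm10. The deposited values are RPKM, the unit given by the methods, so depth and transcript length were already divided out by the authors, and which annotation gave the lengths is not given in the sources used here. The table held 19057 symbols, of which 26 look like dates and 3 occur more than once; no member is among these.

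Groups were taken from the labels. The 10822 genes that reached 1 RPKM in 3 or more of the 18 libraries were analysed as log2(RPKM + 1), a scale that understates changes of low genes, with 1 fit of the 6 group means in limma 3.58.1 under R 4.3.3 (lmFit, contrasts.fit, eBayes with trend). Tests were two-sided, p-values were adjusted by Benjamini-Hochberg within each of 11 contrasts, and calls were made where the adjusted p was below 0.05. The DEGseq method of the authors needs read counts and was not run. All 8 members were named in each contrast, and of each list of other nitrogen genes the 3 called genes ranking first by adjusted p for STZ against Con, with any called in AOS against Con or in an added treatment against STZ (0 were); Car5a, Odc1, Gatm, Glul, Sirt5, Gcgr, Nr3c1 and marker genes were named after their values were seen. The members and lists were chosen with earlier results of these data known. Alternatives were median-ratio, quantile and sum scaling, a pseudocount of 0.1, other filters, limma without trend, fewer groups in the fit, a replicate block and leaving out each mouse. The procedure was tested on simulated data.

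Depth was estimated from values under 2 RPKM of 1027 genes with transcripts under 1500 bases, taking each as 1 read. The most filled bin held 476 values, and the pooled median moved from 12800000 to 13500000 reads with the window searched, so no counting interval was derived from it. The 18 libraries held no identical columns, and libraries of a group correlated at 0.951 to 0.996. Positions and promoter ends are from GENCODE M21, and promoter sequence from RefSeq.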

Additional observations from a re-analysis of the deposited data

How the results depend on the processing

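The 5 calls in STZ against Con kept their direction and call under all alternatives tried. The counts of called members were the same under the replicate block as without it: 5 in STZ against Con, 6 in STZ+AOS against AOS and 4 in each FMT group against Con. Libraries that shared a number had deviations correlated over 0.1 in 16 of 45 pairs (r -0.25 to 0.47, median 0.03), and libraries with different numbers in 16 of 90 (r -0.53 to 0.45). The median r of different-number pairs was -0.01. No pairing is stated by the labels, so none was put in the main fit. These correlations cannot settle whether the numbers mark a pairing or a shared batch. With equal library sums, which moved the median of all genes to 0.43 and called 58.8% of them, 8 members were called in STZ against Con, with Nags at 0.50 (adjusted p = 0.0469), Otc at 0.57 (0.0336) and Glud1 at 0.43 (0.0290). Nags in STZ+AOS against AOS was no longer called after quantile normalization (adjusted p = 0.0620) or with only the compared groups in the fit (0.0569). Arg1 was called under 3 alternatives in A10-FMT against Con and 5 in Con-FMT against Con, among them equal library sums (adjusted p = 0.0221 and 0.0187), and Otc in A10-FMT against Con with only the compared groups (0.0449). Causes were not tested. After median-ratio scaling, uncalled changes turned sign for Glud1 at -0.074 in STZ against Con, Cps1 at -0.030 in STZ+AOS against STZ, Glud1 at -0.23 in STZ+AOS against AOS, Otc at 0.025 in Con-FMT against STZ, Glud1 at 0.013 in A10-FMT against Con-FMT, Nags at -0.00485 and Glud1 at -0.13 in A10-FMT against Con, Glud1 at -0.14 in Con-FMT against Con and Nags at 0.019 and Otc at 0.054 in the mean of both FMT groups against STZ. After quantile normalization, uncalled changes turned sign for Nags at -0.00154 and Glud1 at -0.079 in STZ against Con, Ass1 at -0.18 and Gls2 at 0.017 in STZ+AOS against STZ, Glud1 at -0.21 in STZ+AOS against AOS, Ass1 at -0.38 in A10-FMT against STZ, Ass1 at -0.29 in Con-FMT against STZ, Ass1 at -0.083 in A10-FMT against Con-FMT, Nags at -0.054 and Glud1 at -0.19 in A10-FMT against Con, Glud1 at -0.17 in Con-FMT against Con and Ass1 at -0.34 in the mean of both FMT groups against STZ. With equal library sums, uncalled changes turned sign for Asl at 0.050 in AOS against Con, Gls2 at 0.041 in STZ+AOS against STZ, Otc at -0.053 and Ass1 at -0.017 in A10-FMT against STZ, Nags at -0.070 and Ass1 at -0.073 in Con-FMT against STZ, Glud1 at 0.0014 in A10-FMT against Con-FMT and Ass1 at -0.045 in the mean of both FMT groups against STZ. With 1 mouse left out at a time, other uncalled changes turned sign. In A10-FMT against Con the ranges were Glud1 -0.010 to 0.16. In A10-FMT against Con-FMT the ranges were Gls2 -0.27 to 0.13, Otc -0.016 to 0.15, Asl -0.21 to 0.43, Ass1 -0.032 to 0.17, Glud1 -0.087 to 0.078, Nags -0.21 to 0.058 and Arg1 -0.086 to 0.071. In A10-FMT against STZ the ranges were Otc -0.053 to 0.13, Nags -0.24 to 0.00903 and Ass1 -0.043 to 0.14. In AOS against Con the ranges were Asl -0.13 to 0.056. In Con-FMT against STZ the ranges were Nags -0.16 to 0.13, Gls2 -0.32 to 0.072, Otc -0.13 to 0.087 and Ass1 -0.12 to 0.088. In STZ+AOS against AOS the ranges were Glud1 -0.058 to 0.089. In STZ+AOS against STZ the ranges were Gls2 -0.18 to 0.095, Asl -0.082 to 0.59, Glud1 -0.17 to 0.030 and Cps1 -0.045 to 0.11. For the difference of STZ effects they were Asl -0.060 to 0.62 and Ass1 -0.27 to 0.014. For the mean of both FMT groups against STZ they were Otc -0.073 to 0.11, Ass1 -0.067 to 0.11 and Nags -0.20 to 0.052. With 3 mice a group, intervals of the changes against STZ were wide (for Asl in A10-FMT, -1.18 to 0.23). RPKM hold no counts, and a median shift of all genes of 0.21 in STZ against Con cannot be told apart from a scaling difference.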
